A study of Mus musculus with 10 samples.

Results

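The ERO1 oxidases and protein disulfide isomerases of interscapular brown fat (iBAT) are described here through 10 genes, Ero1l, Ero1lb, P4hb, Pdia3, Pdia4, Pdia5, Pdia6, Txndc5, Prdx4 and Qsox1, picked by symbol from the 15075 genes with deposited values. All 10 passed the filter on low values and are among the 11244 genes tested. The libraries come from 5 Control and 5 AdCKO mice, 1 for each mouse, and were made to ask what loss of cardiolipin synthesis in adipocytes does to gene expression in this tissue. AdCKO mice combined Adipoq-Cre with homozygous floxed Crls1, the gene for cardiolipin synthase, with loxP sites around exon 4. Control mice had the same floxed alleles without Cre and are labelled wild-type. All mice were C57BL/6, 20 weeks old and kept at room temperature. Cre was driven by the promoter of adiponectin, so the cells of iBAT that are not adipocytes keep Crls1, and whole tissue was sequenced. Levels are given in the deposited unit, normalized reads per kb of exon. Sequencing depth is not known, because the deposited values are already normalized.

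Disulfide bonds of secreted and membrane proteins are made in the endoplasmic reticulum (ER) by protein disulfide isomerases, which pass their own disulfide to a client and are left reduced. ERO1 oxidases reoxidize the isomerases and hand the electrons to oxygen, which gives hydrogen peroxide. Prdx4 uses that peroxide to oxidize isomerases in turn, and Qsox1 makes disulfides without ERO1. Brown adipocytes secrete proteins that depend on this machinery, among them adiponectin and lipoprotein lipase.

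Crls1 fell from 1060 ± 191 in Control to 217 ± 26.4 in AdCKO libraries (SD, n = 5; limma adjusted p = 3.53e-08). The adipocyte markers Adipoq, Plin1, Fabp4, Lipe, Cidea and Ucp1 were present in all libraries, with summed levels of 211301 to 240768 in Control and 131315 to 156046 in AdCKO. Markers of other cells were higher in AdCKO, at 5719 to 7807 against 421 to 1198 for 7 macrophage genes and at 3044 to 4239 against 748 to 983 for 4 fibroblast genes. Of these genes, 7 of 7 and 4 of 4 were called higher, where 25.6% of all tested genes were. Skeletal muscle markers summed to 65.2 to 87.2 in Control, to 98.3 and 115 in AdCKO 5 and 3, and to 4494, 6616 and 17285 in AdCKO 1, 4 and 2. Plasma cell markers, from cells rich in this machinery, summed to 17.7 to 22.6 in Control and 68.9 to 145 in AdCKO, where Sdc1, which makes up most of the sum in each AdCKO library, rose. Igj was not called (limma adjusted p = 0.0104) and was highest in AdCKO 1, at 58.9, while Mzb1 and Tnfrsf17 were too low to test. B cell markers summed to 16.7 to 19.3 in Control, to 107 in AdCKO 1 and to 15.7 to 22.0 in AdCKO 2 to 5. Endothelial markers summed to 1086 to 1425 in Control and 1134 to 1584 in AdCKO. The deposited values hold no 0 for any gene, so a low value such as that of Tnfrsf17, near 1 in both groups, does not show expression. In whole tissue, fewer cells of a type and less RNA per cell cannot be told apart. The totals of normalized reads also differed, with 7615403 to 8171138 per Control library and 5419800 to 5843024 per AdCKO library.

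The promoters of the oxidase, its paralog and the isomerase that did not pass the test are shown because Ero1l and Ero1lb parted in AdCKO iBAT and because motifs of the ER stress response lay at only some of these genes. Each line holds the 250 bases before the annotated start in mm9, read 5′ to 3′ on the strand of the gene. Capitals in Ero1l (minus strand, chr14:45938248-45938497) mark the core of the hypoxia response element on the opposite strand. Capitals in Ero1lb (plus strand, chr13:12657900-12658149) and Pdia6 (plus strand, chr12:17273151-17273400) mark the ER stress response element, on the opposite strand in Ero1lb.
Ero1l: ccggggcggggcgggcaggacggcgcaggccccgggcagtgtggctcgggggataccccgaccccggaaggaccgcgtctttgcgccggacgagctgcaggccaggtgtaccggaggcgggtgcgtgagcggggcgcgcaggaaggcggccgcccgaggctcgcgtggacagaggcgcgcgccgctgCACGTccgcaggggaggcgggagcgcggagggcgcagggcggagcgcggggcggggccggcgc
Ero1lb: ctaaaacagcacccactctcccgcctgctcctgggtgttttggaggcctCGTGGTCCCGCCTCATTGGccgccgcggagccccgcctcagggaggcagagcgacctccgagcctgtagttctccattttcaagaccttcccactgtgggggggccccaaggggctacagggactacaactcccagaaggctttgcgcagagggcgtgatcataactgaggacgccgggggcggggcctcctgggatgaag
Pdia6: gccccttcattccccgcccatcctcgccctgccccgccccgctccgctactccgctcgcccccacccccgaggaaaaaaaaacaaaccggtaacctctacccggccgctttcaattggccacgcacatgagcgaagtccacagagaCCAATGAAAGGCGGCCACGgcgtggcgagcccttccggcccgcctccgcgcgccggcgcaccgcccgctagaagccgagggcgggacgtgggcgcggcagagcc

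The ER stress response element was searched as CCAAT and CCACG with 9 bases of any kind between them, on both strands. It was found in 21 of 15075 such windows (0.139%), and 2 of the 10 genes had it. In Ero1lb it lay 201 to 183 bases before the start and in Pdia6 104 to 86 bases before it. Hspa5, the ER chaperone BiP, held it at 65 to 47 bases. Of the 16 tested genes with the element, 5 were higher in AdCKO, 2 were lower and 9 were not called. Over all tested genes, 25.6% were higher and 28.0% were lower. The window of Ero1l held no match to the element, to its variant ATTGG and CCACG with 1 base between them (10 windows, 0.0663%), to TGACGTGG, the unfolded protein response element (107 windows, 0.71%), or to TGATGNAA, the amino acid response element (306 windows, 2.03%). Txndc5 was the gene with a match to the last of these. The hypoxia core ACGTG was common, in 20.5% of all windows, and was present in Ero1l, Pdia5, Pdia6, Txndc5 and Prdx4. It lay 63 to 59 bases before the start of Ero1l. The 2 matches in Prdx4 overlap, since the core and its reverse complement share bases, and the core can also overlap the unfolded protein response element. The window of Ero1l was richer in G and C, at 80.8%, than those of Ero1lb at 64.4% and Pdia6 at 70.0%.

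In AdCKO iBAT, Ero1l RNA rose by more than that of each of the other 9 genes, while its paralog did not pass the test. Of the 10 genes, 7 were higher in AdCKO (Ero1l, P4hb, Pdia3, Pdia4, Txndc5, Prdx4 and Qsox1), 1 was lower (Pdia5) and 2 were not called (Ero1lb and Pdia6), by limma at an adjusted p under 0.01. The study singled out Ero1l for its change, so its part in these counts, ranges and medians of the 10 genes carries no test. Over all tested genes, 25.6% were higher and 28.0% were lower (2879 and 3152 genes). With every library given the same total, the counts were 7013 higher and 1094 lower, and of the 10 genes 9 were higher and Pdia5 was not called. The median log2 fold change was 0.53 for the 10 genes and -0.01 for all genes. The ranges of the groups did not overlap for 7 genes that were higher and 1 that was lower, against 24.5% and 26.4% of all tested genes. That scaling moved the median of all genes up by 0.48, and relative to the median of all genes each of the 10 changes then lay between -0.41 for Pdia5 and 2.75 for Ero1l.

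**Figure D1:**
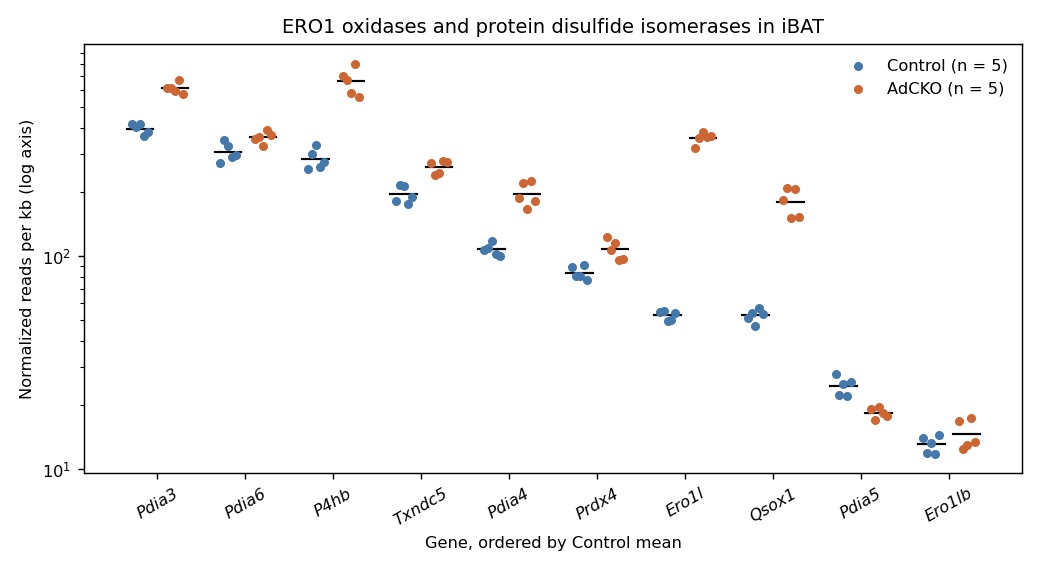
Level of each gene in every library, in normalized reads per kb on a log axis, with points for the 5 Control (blue) and 5 AdCKO (orange) libraries and a bar at each mean. The levels of Ero1l rise from 49.4 to 55.3 in Control to 320.5 to 383 in AdCKO, while those of Ero1lb overlap at 11.8 to 14.5 and 12.4 to 17.3.

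The oxidase Ero1l (NM_015774, chromosome 14, 45902762 to 45938247, minus strand) encodes the broadly expressed ERO1 alpha. Its level was 54.4, 55.3, 49.4, 50.2 and 54.3 in Control 1 to 5 and 320.5, 357, 383, 360.2 and 367 in AdCKO 1 to 5. Every AdCKO library stood far above every Control library, and within each group the libraries lay close together. The means were 52.7 ± 2.69 and 358 ± 23.1 (SD, n = 5), a 6.79-fold difference and a log2 fold change of 2.74 (SE 0.07, 95% interval 2.60 to 2.88). The study singled out Ero1l for its change in these libraries, so these values are a description and carry no test. A larger log2 fold change was seen for 110 of the tested genes (0.978%). In Control, 42.6% of the tested genes had a lower mean level than Ero1l, and in AdCKO 88.5% did.

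The paralog Ero1lb (NM_026184, chromosome 13, 12658150 to 12701795, plus strand) encodes ERO1 beta, which is best known from insulin-producing cells. Its level was 14.0, 11.9, 13.3, 11.8 and 14.5 in Control 1 to 5 and 16.8, 12.4, 13.0, 17.3 and 13.4 in AdCKO 1 to 5. The groups overlapped, with AdCKO 1 and 4 above all Control libraries. The means were 13.1 ± 1.23 and 14.6 ± 2.27 (SD, n = 5). The log2 fold change was 0.14 (SE 0.12, 95% interval -0.11 to 0.39, limma adjusted p = 0.31), and an exact permutation test of the means gave p = 0.254. The interval leaves room for a rise of up to 0.39 on the log2 scale. With equal library totals Ero1lb was called higher, at 0.59, which is 0.12 above the median of all genes. With quantile normalization its sign turned, to -0.24 (limma adjusted p = 0.0698).

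The Ero1l level was 4.05 ± 0.40 times that of Ero1lb in Control and 25.1 ± 4.80 times in AdCKO (SD, n = 5), given without a test like every ratio to Ero1l here, since Ero1l was singled out for its change. The ratio was 3.72 to 4.66 in the Control libraries. In AdCKO it was 19.1 and 20.9 in libraries 1 and 4, where Ero1lb was highest, and 27.4 to 29.5 in libraries 2, 3 and 5. Ero1l made up 80.1% ± 1.5 of the summed level of both oxidases in Control and 96.1% ± 0.779 in AdCKO. As log2 changes, that of Ero1l exceeded that of Ero1lb by 2.60 (SE 0.14, 95% interval 2.30 to 2.91). A ratio within a library is not affected by a factor that scales the whole library.

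**Figure D2:**
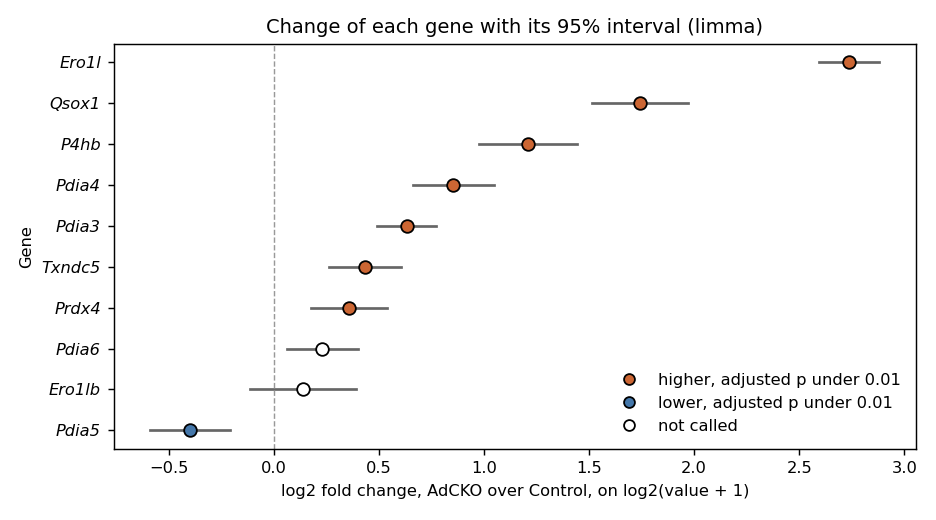
Log2 fold change of AdCKO over Control for each gene on the log2(value + 1) scale, with its 95% interval from limma. Ero1l stands at 2.74, Qsox1 at 1.74 and P4hb at 1.21, the intervals of Ero1lb and 0 overlap, and Pdia5 at -0.40 is the gene below 0, which moves to 0.06 when every library is given the same total.

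P4hb (NM_011032, chromosome 11, 120421618 to 120434250, minus strand) encodes the founding isomerase, PDI itself, which is also a subunit of prolyl 4-hydroxylase and of the microsomal triglyceride transfer protein. Its level was 255, 300.0, 331, 261 and 276 in Control 1 to 5 and 699, 669, 580.3, 801 and 557 in AdCKO 1 to 5. The groups did not overlap, and the AdCKO libraries were more spread than those of Control. The means were 285 ± 31.0 and 661 ± 98.2 (SD, n = 5), a 2.32-fold rise or 1.21 on the log2 scale (limma, SE 0.11, adjusted p = 1.14e-06). Of the log2 fold changes of the 6 isomerases, this was the largest.

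Pdia4 encodes ERp72, an isomerase with an extra thioredoxin domain. It rose from 100.5 to 117 in Control libraries to 166 to 225 in AdCKO, by 0.85 on the log2 scale (SE 0.09, limma adjusted p = 4.23e-06). Pdia3 encodes ERp57, which acts on glycoproteins held by calnexin and calreticulin. It rose from 364 to 418 in Control libraries to 577 to 670 in AdCKO, by 0.63 (SE 0.07, limma adjusted p = 3.98e-06). Txndc5 encodes ERp46, an isomerase that also works with Prdx4. It rose from 175 to 216 in Control libraries to 240 to 279 in AdCKO, by 0.43 (SE 0.08, limma adjusted p = 0.000394). None of these 3 genes overlapped between the groups.

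Pdia6, which encodes the isomerase P5, stood at 274, 349, 328, 291 and 298 in Control 1 to 5 and at 356, 362, 329, 389 and 369 in AdCKO 1 to 5. The groups overlapped, since AdCKO 3 lay below Control 2. The means were 308 ± 30 and 361 ± 21.9 (SD, n = 5), and the log2 fold change of 0.23 (SE 0.08, 95% interval 0.06 to 0.40) did not pass (limma adjusted p = 0.0192). An exact permutation test of the means gave p = 0.0159. Pdia6 was called higher without Control replicate 2 (0.28, limma adjusted p = 0.00671), with equal library totals and with quantile normalization.

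Pdia5 encodes PDIR, a less abundant isomerase of the ER. Its level was 28.0, 22.2, 25.0, 22.0 and 25.5 in Control 1 to 5 and 19.1, 17.1, 19.6, 18.2 and 17.7 in AdCKO 1 to 5. Every AdCKO library lay below every Control library. The means were 24.5 ± 2.52 and 18.3 ± 1.03 (SD, n = 5), a difference of -0.40 on the log2 scale (limma, SE 0.09, adjusted p = 0.00162) that changed sign to 0.06 (limma adjusted p = 0.57) with equal library totals. Relative to the median of all genes, Pdia5 stood at -0.39, and at -0.41 with equal library totals.

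The summed level of the 6 isomerases P4hb, Pdia3, Pdia4, Pdia5, Pdia6 and Txndc5 was 1315 ± 93.1 in Control and 2113 ± 175 in AdCKO (SD, n = 5; exact permutation test, p = 0.0079, the smallest p that 5 against 5 allows), a 1.61-fold difference. Without P4hb it was 1031 ± 65.0 and 1452 ± 81.4, or 1.41-fold. Against this sum, the level of Ero1l was 4.02% ± 0.346 in Control and 17.0% ± 2.12 in AdCKO. In the Control libraries it was 3.46% to 4.30%, and in AdCKO it was 14.9% and 15.1% in libraries 1 and 4, 16.9% in 2, 18.5% in 5 and 19.8% in 3. Set against P4hb alone, Ero1l moved from 18.7% ± 2.35 to 55.2% ± 10.3 of its level.

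The make-up of the isomerase sum also moved. P4hb took 21.6% ± 1.03 of it in Control and 31.2% ± 2.16 in AdCKO (SD, n = 5; exact permutation test, p = 0.0079). The share of Pdia6 was 23.4% ± 1.2 and 17.1% ± 0.907 (exact permutation test, p = 0.0079). The share of Pdia3 was 30.2% ± 1.71 and 29.1% ± 1.02, with overlapping groups (exact permutation test, p = 0.31). In order of level per kb, Control iBAT held Pdia3 first, then Pdia6 and P4hb, whose ranges overlapped with Pdia6 higher in 4 of 5 libraries. Below them came Txndc5, Pdia4, Prdx4, then Ero1l and Qsox1 with overlapping ranges, then Pdia5 and Ero1lb. In AdCKO, P4hb and Pdia3 led with overlapping ranges and P4hb higher in 3 of 5 libraries. Pdia6 and Ero1l came next, again with overlapping ranges and Pdia6 higher in 4 of 5 libraries. Txndc5, Pdia4, Qsox1, Prdx4, Pdia5 and Ero1lb followed, and the ranges of Pdia4 and Qsox1 and of Pdia5 and Ero1lb overlapped.

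**Figure D3:**
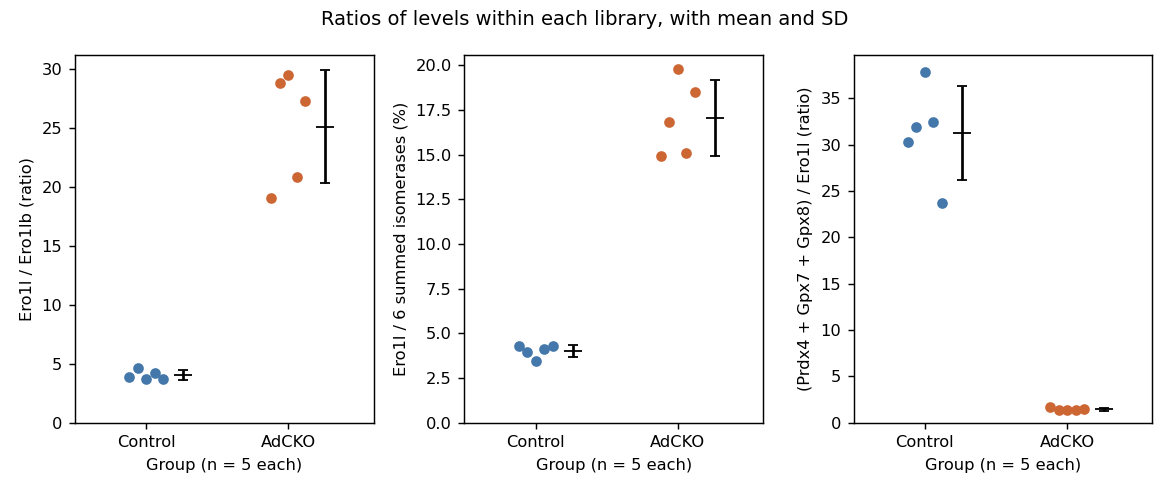
Ratios of levels within each library, with points for the 5 Control and 5 AdCKO libraries and the mean ± SD beside them. Ero1l per Ero1lb and Ero1l as a percentage of the 6 summed isomerases rise from 4.05 to 25.1 and from 4.02% to 17.0%, and the summed peroxidases Prdx4, Gpx7 and Gpx8 per Ero1l fall from 31.2 to 1.47.

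The change of Ero1l was compared with that of each of the other 9 genes by limma on the difference of log2 values within each library, adjusted over all tested genes. The change of Ero1l was larger by 1.00 to 3.14 on the log2 scale. The fit put all 9 past its threshold, as it did 96.9% of the 11243 other tested genes, and because Ero1l was singled out for its change the differences are descriptions and support nothing about the 9 genes. The gap was narrowest for Qsox1 (1.00, SE 0.12, 95% interval 0.73 to 1.26) and P4hb (1.53, SE 0.13). It was 1.88 for Pdia4, 2.11 for Pdia3, 2.30 for Txndc5, 2.38 for Prdx4 and 2.51 for Pdia6, and widest for Pdia5 at 3.14.

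Qsox1 (NM_023268, chromosome 1, 157625285 to 157660029, minus strand) encodes quiescin sulfhydryl oxidase, which makes disulfides by itself in the Golgi and outside cells. Its level was 51.4, 54.2, 47.1, 57.1 and 53.6 in Control 1 to 5 and 184, 209, 150.1, 205 and 152 in AdCKO 1 to 5. The groups did not overlap. The means were 52.7 ± 3.71 and 180.0 ± 28.2 (SD, n = 5), a 3.42-fold rise or 1.74 on the log2 scale (limma, SE 0.10, adjusted p = 5.83e-08). Larger log2 fold changes were seen for 489 tested genes (4.35%). Ero1l and Qsox1 thus stood at nearly equal levels per kb in Control, with 1.00 ± 0.0784 Qsox1 per Ero1l, and parted to 0.507 ± 0.0955 in AdCKO. Macrophage and fibroblast markers rose in AdCKO as well, and their part in the results for Qsox1 and P4hb was not tested.

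Prdx4 (NM_016764, chromosome X, 151758463 to 151772997, minus strand) encodes the peroxiredoxin of the ER. Its level was 88.4, 80.7, 80.4, 90.6 and 77.0 in Control 1 to 5 and 122, 107, 115, 95.9 and 97.2 in AdCKO 1 to 5. The groups did not overlap, but AdCKO 4 and 5 lay close to Control 4. The means were 83.4 ± 5.80 and 107 ± 11.4 (SD, n = 5), a 1.29-fold rise or 0.36 on the log2 scale (limma, SE 0.08, adjusted p = 0.00219). Per Ero1l, Prdx4 went from 1.59 ± 0.154 to 0.302 ± 0.0473.

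The other ER peroxidases went in opposite directions. Gpx8, a membrane-bound glutathione peroxidase of the ER, fell from 1518 ± 220 to 340.1 ± 26, by 2.15 on the log2 scale (SE 0.10, limma adjusted p = 1.57e-08). Gpx7, its soluble relative that oxidizes isomerases with peroxide, rose from 37.2 ± 5.91 to 76.3 ± 9.19, by 1.02 (SE 0.12, limma adjusted p = 1.08e-05). Summed with Prdx4, a sum chosen after the values were seen, these peroxidases stood at 1639 ± 220 in Control and 524 ± 25.7 in AdCKO. For each unit of Ero1l there were 31.2 ± 5.10 units of the 3 peroxidases in Control and 1.47 ± 0.156 in AdCKO libraries (SD, n = 5), a description with no test. The ratio ran from 23.7 to 37.9 in Control libraries and from 1.36 to 1.74 in AdCKO libraries. In Control, most of the peroxidase sum was Gpx8.

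The 5 other ER thiol oxidases and peroxidases, Qsox2, Gpx7, Gpx8, Vkorc1 and Vkorc1l1, thus held 2 that were higher, 1 that was lower and 2 that were not called, with a median log2 fold change of 0.02. The shares over all tested genes were 25.6% higher and 28.0% lower, with a median of -0.01. Qsox2, a relative of Qsox1, was higher by 0.32 (SE 0.07, limma adjusted p = 0.00208), a call that quantile normalization did not make. Vkorc1l1, a vitamin K epoxide reductase that can also oxidize isomerases, stood at 121 ± 11.7 and 122 ± 5.62 (0.02 on the log2 scale, limma adjusted p = 0.86). The disulfide relay of the mitochondrial intermembrane space, made of Chchd4 and Gfer, was not called in either gene, at 0.03 and -0.14. Equal library totals called both higher, as they did 61.4% of all genes. Relative to the median of all genes, Chchd4 and Gfer then stood at 0.04 and -0.13.

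**Figure D4:**
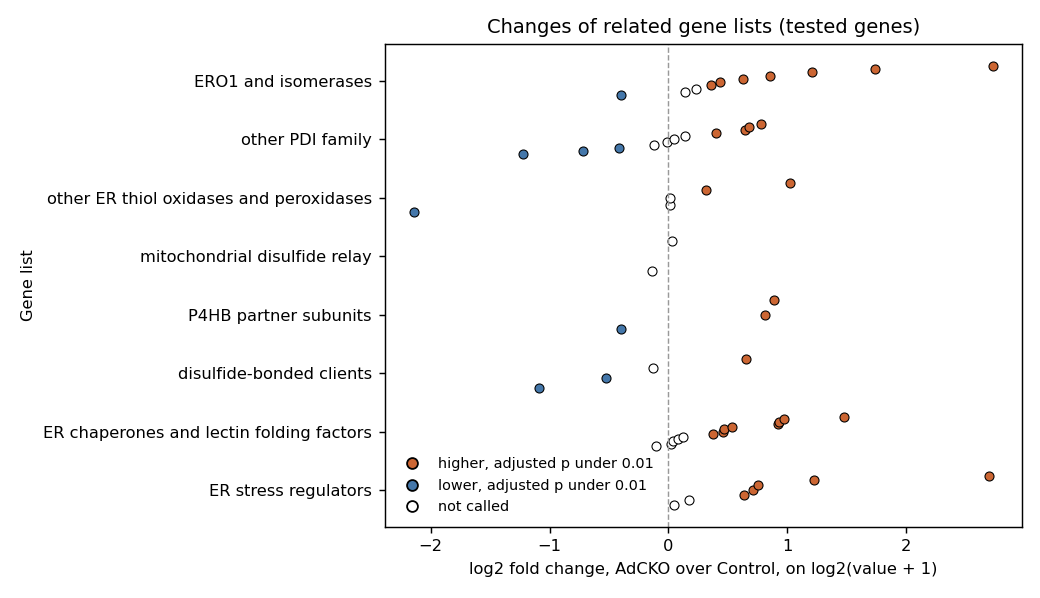
Log2 fold change of each tested gene in the 10 described genes and in 7 related lists, filled where the adjusted p from limma was under 0.01. The ER chaperones and ER stress regulators hold no gene that was called lower by the authors' normalization, while the other lists with calls hold genes on both sides of 0, with Gpx8 at -2.15 the lowest.

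Of the 16 listed other members of the isomerase family, 11 were tested, and 4 were higher, 3 were lower and 4 were not called, with a median log2 fold change of 0.05. Over all tested genes 25.6% were higher and 28.0% lower. With equal library totals, 8 of the 11 were higher and 2 lower, with a median of 0.53 against 0.47 for all genes. Erp29, a chaperone with an isomerase fold and no active site cysteine pair, rose by 0.68 (SE 0.07, limma adjusted p = 6.29e-06), and Txndc16 rose by 0.78 (SE 0.10, limma adjusted p = 1.94e-05). The membrane-bound Tmx4 and Tmx2 fell by 1.22 (SE 0.13, limma adjusted p = 7.03e-06) and 0.72 (SE 0.07, limma adjusted p = 3.42e-06). Txndc15 was lower by the authors' normalization (by -0.41 on the log2 scale, SE 0.08, adjusted p from limma 0.000686) and changed sign to 0.07 with equal library totals. Relative to the median of all genes, Txndc15 stood at -0.40 with either scaling. Tmx3 and Dnajc10, named after their values were seen, were the other 2 that were higher, at 0.40 and 0.64. With AdCKO replicates 1, 2 and 4 left out, 2 of the 11 genes were higher and 2 were lower. Over all genes tested in that setting, 18.8% were higher and 19.7% lower.

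Of 4 listed partners of P4hb, 3 were tested, and 2 were higher and 1 was lower, where 25.6% and 28.0% of all tested genes were. The higher ones were both tested catalytic subunits that pair with P4hb in collagen prolyl 4-hydroxylase, while P4ha3 was too low to test. P4ha1 rose from 35.2 ± 6.20 to 62.3 ± 9.98, by 0.81 (SE 0.13, limma adjusted p = 0.000174), and P4ha2 from 19.3 ± 3.26 to 36.7 ± 6.71, by 0.89 (SE 0.14, limma adjusted p = 0.0001). Mttp, the partner of P4hb in lipid transfer, stood at -0.40 on the log2 scale (limma, SE 0.11, adjusted p = 0.00581) and turned to 0.05 with equal library totals. Relative to the median of all genes, Mttp stood at -0.39, and at -0.42 with equal library totals. The fibroblast markers Col1a1 and Col3a1, which encode collagen chains that the hydroxylase modifies, rose by 3.36 and 3.21. Their part in the rise of P4hb and its partners was not tested.

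Among 4 clients with disulfide bonds, Lpl, which encodes lipoprotein lipase, was higher by 0.65 (SE 0.12, limma adjusted p = 0.000384). Adipoq, which encodes adiponectin, was lower by the authors' normalization, at -0.52 (SE 0.13, limma adjusted p = 0.00383), but stood at 0.29 and was not called with quantile normalization. Itpr1, the calcium channel that ERO1 alpha and ERp44 act on, fell by 1.09 (SE 0.12, limma adjusted p = 5.68e-06). Sumf1 stood at -0.13 and was not called.

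Of 13 ER chaperones and lectin folding factors, 8 were higher, 0 were lower (0 also at an unadjusted p under 0.05) and 5 were not called by limma, and the median log2 fold change was 0.46, against 25.6% higher, 28.0% lower and a median of -0.01 over all tested genes. With equal library totals all 13 were higher, where 61.4% of all genes were. The smallest p were those of Sdf2l1 at 1.48 (SE 0.11), of Hspa5, which encodes the chaperone BiP, at 0.93 (SE 0.08), of Hsp90b1, which encodes GRP94, at 0.93 (SE 0.08), and of Calr, which encodes calreticulin, at 0.54 (SE 0.06). Of 7 genes listed as ER stress regulators, with Hif1a of the hypoxia response among them, 5 were higher and 0 were lower by limma. At an unadjusted p under 0.05, 0 were lower as well. The median of the 7 was 0.71, and with equal library totals all 7 were higher. Ddit3, which encodes the transcription factor CHOP-10, rose from 219 ± 7.97 to 1448 ± 256, by 2.70 (SE 0.11, limma adjusted p = 3.13e-09). Atf4, Atf6 and Ern1 rose by 1.22, 0.75 and 0.71. Hif1a, which encodes a transcription factor of the hypoxia response and is named here after its values were seen, stood at 139 ± 17.6 and 143 ± 15. It was not called (limma adjusted p = 0.70). These are RNA levels, and its protein was not measured in these libraries.

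**Figure D5:**
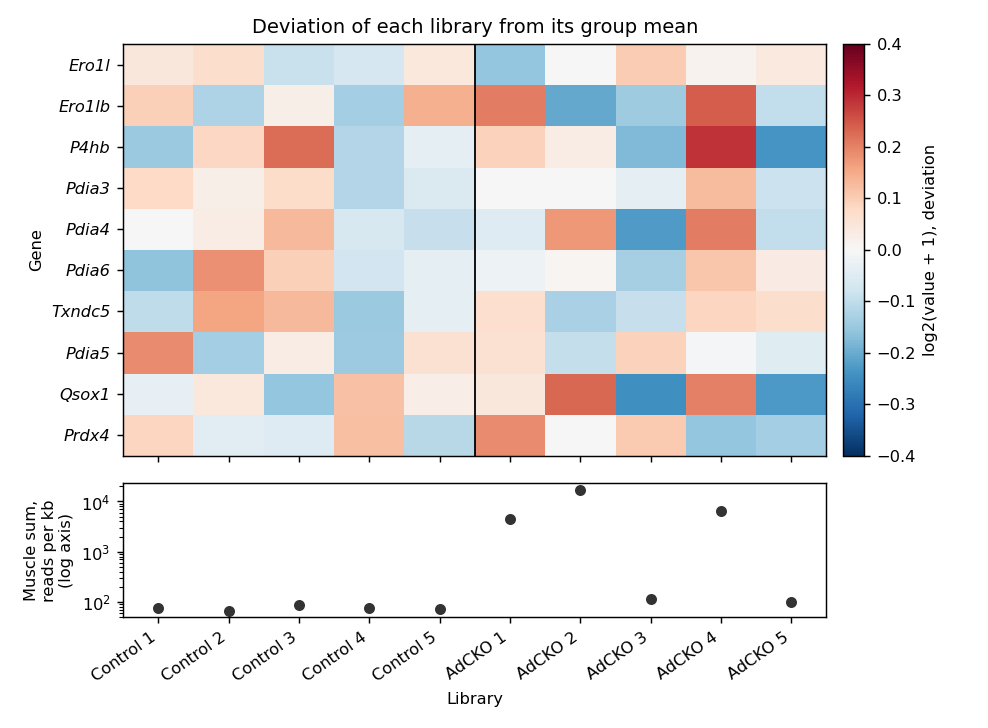
Deviation of each library from the mean of its own group on the log2(value + 1) scale, for each gene (upper panel, colour scale from -0.4 to 0.4), and the summed level of 4 skeletal muscle markers in normalized reads per kb on a log axis (lower panel). In AdCKO 3 and 5, where the muscle sum is 115 and 98.3, P4hb, Pdia4 and Qsox1 lie below the AdCKO mean and Ero1l above it.

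Within the AdCKO group the oxidase and several isomerases ranked the libraries differently. Ero1l was highest in AdCKO 3 and 5, at 383 and 367, against 320.5 to 360.2 in AdCKO 1, 2 and 4. P4hb was lowest in those 2 libraries, at 580.3 and 557 against 669 to 801, and so was Qsox1, at 150.1 and 152 against 184 to 209. Pdia4, at 166 and 182 against 188 to 225, and Pdia3, at 596 and 577 against 612 to 670, showed the same order. The other genes did not, since the ranges of Txndc5, Pdia6, Pdia5, Prdx4 and Ero1lb overlapped. Txndc5 was at 246 to 276 in AdCKO 3 and 5 against 240 to 279, and Pdia6 at 329 to 369 against 356 to 389. Ddit3 followed Ero1l, with 1743 and 1710 in AdCKO 3 and 5 and 1214 to 1289 in the others. AdCKO 3 and 5 are also the libraries with skeletal muscle marker sums near those of Control. The fibroblast marker sum was lower in AdCKO 3 and 5, at 3839 and 3044 against 4174 to 4239. Among adipocyte markers, Ucp1 was higher there, at 18077 and 18828 against 7895 to 12861. Adipoq was lower there, at 3324 and 3786 against 3894 to 5032. The summed adipocyte markers overlapped, at 136994 and 156046 against 131315 to 146348, and so did the summed macrophage markers. The endothelial marker sum was higher in AdCKO 3 and 5, at 1584 and 1427 against 1134 to 1204. The part of any of these cell types in the differences was not tested.

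Without AdCKO replicates 1, 2 and 4, a choice made after seeing the data, 6 of the 10 genes were called higher and 0 lower by limma (1 was lower at an unadjusted p under 0.05). Over all genes tested in that setting, 18.8% were higher and 19.7% lower. Ero1l then stood at 2.81, P4hb at 1.00 and Qsox1 at 1.5, and the 3 were still called higher. Prdx4 (0.34, limma adjusted p = 0.0247) and Pdia5 (-0.38, limma adjusted p = 0.0326) were no longer called, with 2 AdCKO libraries left.

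Over the 10 libraries, after the mean of each group was subtracted, the Pearson r of the log2 values was -0.42 between Ero1l and P4hb, 0.78 between P4hb and Pdia4, 0.71 between P4hb and Pdia3, and 0.82 between Pdia6 and Txndc5. These are descriptions of 10 libraries that share the authors' normalization. Without subtracting the means, the tested genes whose levels were most like those of Ero1l were Slc7a5, an amino acid transporter (r = 0.998), and Cyb5r1, Eprs, Nceh1 and Arhgap33 (r = 0.997 each). Such an r includes the gap between the groups, and 57 tested genes had an r over 0.99. After subtraction, the most alike were Tmem126b (0.908), Ndufaf7 (0.902), Txndc12 (0.884), Mrpl45 (0.881) and Ctnnb1 (0.87), of which Txndc12 is an isomerase family member with a log2 fold change of -0.12 that was not called.

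Exons of other annotated genes overlapped those of Txndc5 (Bmp6, 236 bases), Pdia6 (Atp6v1c2, 50 bases), Pdia3 (Catsper2, 18 bases), Pdia4 (Mir704, 14 bases) and Ddit3 (Mars, 68 bases). The strand setting of the counting is not given in the sources used here, so reads from these bases cannot be assigned to one gene of a pair.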

How the data were processed

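iBAT RNA from 5 Control and 5 AdCKO mice was analysed, grouped by the sample labels. The authors isolated polyadenylated RNA, used STAR for mapping to mm9, iRNA-seq for counting over exons and DESeq2 for normalization (versions not given in the sources used here). What they deposited is a signal, the normalized reads per kb of exon, and not counts. None is 0, and 23.1% to 24.5% of low values lay within 0.1 of a whole read at best (20% by chance), so no count test was run and no counting error is given. The authors also deposited fold changes and adjusted p-values of their own, which were not used.

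Genes with a mean of at least 10 in either group were compared on the log2(value + 1) scale, on which differences of weakly expressed genes come out too small, with limma 3.58.1 in R 4.3.3 (intensity trend, two-sided, Benjamini-Hochberg over all tested genes, threshold 0.01). The test was checked on simulated data. Levels, and ratios without Ero1l, were tested by exact permutation, two-sided, over 252 splits into 5 and 5. Promoters and exon overlaps came from the mm9 genome and GENCODE vM1 (pysam 0.24.0), and figures from matplotlib 3.10.9.

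The 10 genes and all lists were chosen with earlier results of these data known. Besides the 10 genes, Crls1 and Ddit3, the genes named are at most 4 per list with the smallest p, called genes that go against most of their list, and the 5 most like Ero1l by r, with and without group means. Tmx3, Dnajc10, Hif1a, 2 collagen genes, and genes with 1 library far from the others were named after their values were seen. As alternatives, the pseudocount was set to 0.1 or 10, the filter to none or to a mean of at least 1, the normalization to equal library totals or quantiles, limma's trend to none or robust, and the threshold to 0.05. Array weights, the replicate block and leaving out libraries were also tried.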

Additional observations from a re-analysis of the deposited data

Results flagged for a closer look

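Across the levels and ratios of the named genes, 136 groups of 5 libraries were checked for 1 library far from the other 4, and 11 were found. Chance alone gives about 1 in 20 groups, and no cause was tested. Among the ratios of the described genes, Pdia3 took 33.1% of the isomerase sum in Control 1 against 28.7% to 29.96% in the other Control libraries. Qsox1 per Ero1l was 1.14 in Control 4 against 0.946 to 0.987, and the summed peroxidases per Ero1l were 1.74 in AdCKO 1 against 1.36 to 1.45.

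The other 8 were single genes of the related lists. In Control, Erp29 was 234 in library 4 against 199 to 208, Vkorc1 was 230.1 in library 4 against 271 to 283, Vkorc1l1 was 142 in library 1 against 113 to 120.2, Gfer was 153 in library 2 against 105 to 119, and Calr was 1078 in library 1 against 1192 to 1232. In AdCKO, P4ha2 was 48.3 in library 2 against 31.8 to 36.2. Hyou1, an ER chaperone, was 171 in AdCKO 5 against 138 to 142, and Eif2ak3, which encodes the ER stress sensor PERK, was 58.6 in the same library against 42.7 to 45.2.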

How the results depend on the processing

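With equal library totals, 7013 genes rose and 1094 fell, 0 of the 10 genes were lower, the log2 fold change of Pdia5 moved to 0.062 and Ero1lb and Pdia6 were called higher. Without AdCKO replicates 1, 2 and 4, 0 of the 10 genes were lower. Quantile normalization, array weights (0.26, limma adjusted p = 0.00573) and an adjusted p of 0.05 also called Pdia6 higher. In all 11 alternatives with every library, 7 to 9 of the 10 genes were higher, and the log2 fold change of Ero1l was 2.55 to 3.21. All 9 others changed less than Ero1l, as did 96.6% to 98.3% of all other tested genes, which is a description.

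When libraries were dropped singly, 2643 to 2887 genes were higher and 2880 to 3066 lower, and 7 to 8 of the 10 genes were higher and 1 was lower. The fit of differences from Ero1l put 9 genes past its threshold, with 96.4% to 97.3% of all other tested genes. As before, that fit is a description and supports nothing about the 9 genes. The log2 fold change of Ero1l was 2.71 to 2.78 and its excess over Ero1lb 2.54 to 2.69. The rise in Ero1l per Ero1lb was 20.0 to 22.6, in Ero1l as a percentage of the isomerase sum 12.3 to 13.6, and in that sum 731 to 842.

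The replicate number did not pair the libraries, since same-numbered libraries correlated at -0.268 to 0.098 after group means were removed. With the replicate block, 2592 genes were higher and 2838 lower, and the 10 genes kept 7 higher and 1 lower, with Ero1l at 2.74. Of the partners of P4hb, 0 were then lower, and of the clients 1 was. Depth is unknown, so the spread between 5 mice of a group is the precision given.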
